A study of Mus musculus with 14 samples.

Results

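The thymus of mice carrying Cre recombinase (Cre+) was compared with the thymus of mice without it (control) in 4 arrays, 2 of each kind, out of the 14 arrays of the series. The arrays were chosen by their titles alone, and every probe set that names a single gene entered the comparison. All mice had floxed copies of 3 FoxO genes, labelled Fk1 L/L, Fk2 L/L and Afx L/L after older names of Foxo1, Foxo3 and Foxo4, on the FVBn background. The controls were MxCre- and the other group MxCre+, so the floxed alleles were shared by both groups and the transgene alone separated them by label. In MxCre mice the recombinase stands under the interferon-inducible Mx promoter, which is active in many cell types and not in thymocytes alone. The labels used here do not give the age or sex of the mice, how Cre was induced, the state of the thymus at collection or whether the 2 samples of a group came from separate mice. The other arrays held liver sinusoidal endothelial cells (LSEC, 3 control and 3 Cre+) and lung endothelial cells (2 and 2) of the same genotypes.

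FoxO proteins are forkhead transcription factors that insulin and growth factor signalling hold out of the nucleus through AKT, and that otherwise switch on genes of cell cycle arrest, stress defence and apoptosis. In T cells FoxO1 is known to drive genes of survival and homing such as Il7r, Klf2 and Ccr7. The thymus holds mostly immature T cells (thymocytes), which pass from CD4 CD8 double negative through rapid division to double positive and then to single positive cells, among epithelial cells, fibroblasts, vessels, macrophages and dendritic cells.

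Levels are log2 values after quantile normalization of the 14 arrays. A gene is represented by its brightest single-gene probe set, and it was tested when its mean in at least 1 of the 3 tissues reached 6.38, the 40th percentile of all probe sets; 14262 of 18193 genes did so, and 12652 of them reached this limit in thymus. Probe-level values come from a second fit over 25446 probe sets, of which 0.326% passed. Changes are log2 fold changes, Cre+ minus control, tested with limma over all 14 arrays and adjusted by the Benjamini-Hochberg method over all genes, with an adjusted p of 0.05 as threshold. The control arrays correlated at r = 0.986 over genes and the Cre+ arrays at 0.971, and the SD of a gene between arrays had a median of 0.0803 in control and 0.136 in Cre+ thymus. All 7 tested pan T cell genes reached the limit in thymus, as did all 15 tested genes of double positive thymocytes, among them Cd8a, Cd4, Rag1 and Dntt. Xist read 13.12 in control replicate 1 and 13.28 in Cre+ replicate 1, against 7.22 and 6.83 in the replicates 2, and the Y-linked Kdm5d ran the other way (4.95 and 4.78 against 8.10 and 8.03). Each group therefore held 1 array of either pattern. Each thymus group had 2 arrays, and limma took the spread from the arrays of all 6 groups, LSEC and lung included. The p-values measure the spread between arrays, which may be technical.

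Foxo1, Foxo3 and Foxo4 were examined first, since they are the genes to be deleted. Foxo4 fell most, Foxo1 fell at each of its 3 tested probe sets, and Foxo3 rose. The Foxo4 probe set 1456753_at read 8.08 and 8.09 in control thymus and 4.73 and 4.97 in Cre+ thymus. Both Cre+ arrays lay below both controls and under the limit for dim probe sets, a difference of 9.42-fold (log2 -3.24, SE 0.25, probe-level limma adjusted p = 0.000509). The other Foxo4 probe set, 1422149_at, lay under the limit in both groups and differed by -0.07 (adjusted p = 0.947).

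Foxo1 is the family member best known for T cell homeostasis. Its brightest probe set, 1416981_at, read 9.44 and 9.21 in control thymus and 8.29 and 7.98 in Cre+ thymus, without overlap. This is a fall of 2.28-fold (log2 -1.19, SE 0.15, probe-level limma adjusted p = 0.0104). The probe sets 1416982_at and 1416983_s_at differed by -1.02 (adjusted p = 0.0499) and -1.80 (adjusted p = 0.0447). In Cre+ thymus 1416982_at still read 7.97 and 8.10, well above the limit. A further probe set, 1456529_at, was dim in every tissue and was not tested; it read 3.65 in both controls and 2.83 and 3.12 in Cre+ thymus.

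Foxo3 moved in the opposite direction. Its probe set 1434832_at read 8.89 and 8.95 in control and 9.68 and 9.53 in Cre+ thymus, so that both Cre+ arrays were higher (1.6-fold, log2 0.68, SE 0.11, probe-level limma adjusted p = 0.0241). The probe set 1434831_a_at differed by 0.46 without passing the threshold (adjusted p = 0.195), although its arrays did not overlap (8.61 and 8.65 against 9.14 and 9.03). The probe set 1450236_at read 6.68 and 6.83 in control and 6.75 and 6.80 in Cre+ thymus, a difference of 0.02 (adjusted p = 0.981). Where these probe sets lie relative to the floxed exons was not known here, so a probe set outside the deleted part would not show a deletion. Foxo6 had no single-gene probe set and was not analysed here. Only the call of Foxo4 1456753_at held when any 1 thymus array was left out; Foxo1 1416981_at lost its call without control replicate 1 or Cre+ replicate 2 (log2 -1.07 and -1.03), and the other Foxo1 and Foxo3 calls were lost under each of the 4 omissions with their directions kept.

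**Figure D1:**
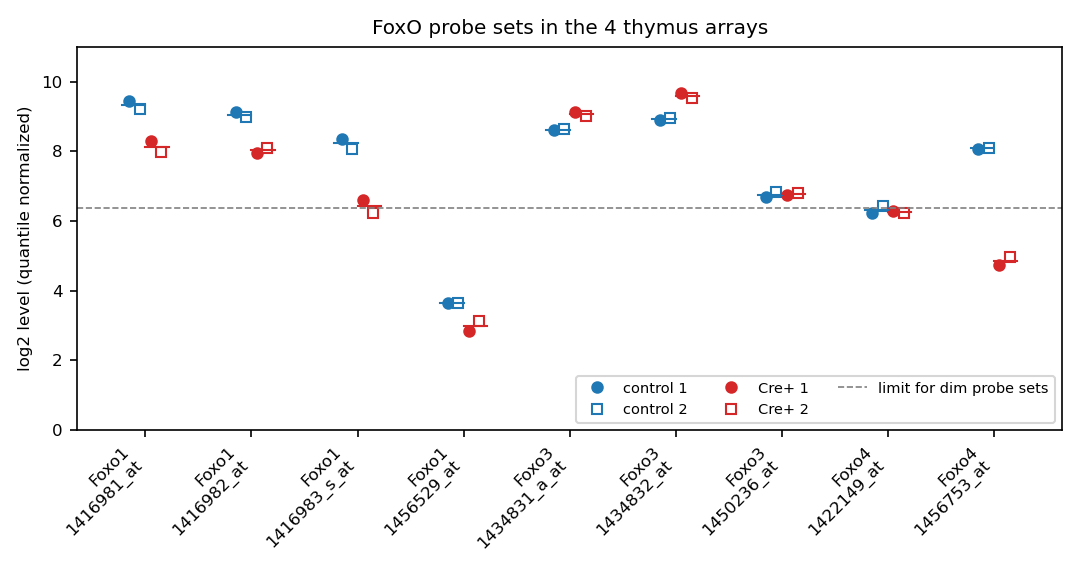
Log2 level (vertical axis) of each FoxO probe set in the 4 thymus arrays; blue marks control and red Cre+, filled circles replicate 1 and open squares replicate 2, short bars the group means of 2 arrays, and the dashed line the limit of 6.38. Foxo4 1456753_at dropped from a mean of 8.09 to 4.85. All Foxo1 probe sets drawn, 3 of them tested, were lower in both Cre+ arrays. Of the 3 Foxo3 probe sets, 2 were higher.

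Over all genes, 46 of the 14262 tested passed the threshold in thymus (0.323%), 18 of them higher (0.126%) and 28 lower (0.196%) in Cre+. The median change of all genes was 0.02. A fold of 2 or more was reached by 25 of the 46, 8 higher and 17 lower, and the smallest change that passed was 0.57. The arrays of the groups did not overlap for any of the 46, a state that 41.1% of all genes tested shared (22.7% higher, 18.4% lower). At an unadjusted p under 0.05, 1671 genes differed (11.7%), 899 higher (6.3%) and 772 lower (5.41%). The count rested on single arrays, since it was 28 without control replicate 1, 16 without control replicate 2, 199 without Cre+ replicate 1 and 11 without Cre+ replicate 2, and 4 genes passed when the thymus arrays were fitted alone, without the spread of the endothelial arrays. Epha2, Gm34303, H2-Eb1, Gimap6 and Foxo4 passed under each of the 4 omissions, and each of the other genes lost its call under at least 1 of them.

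**Figure D2:**
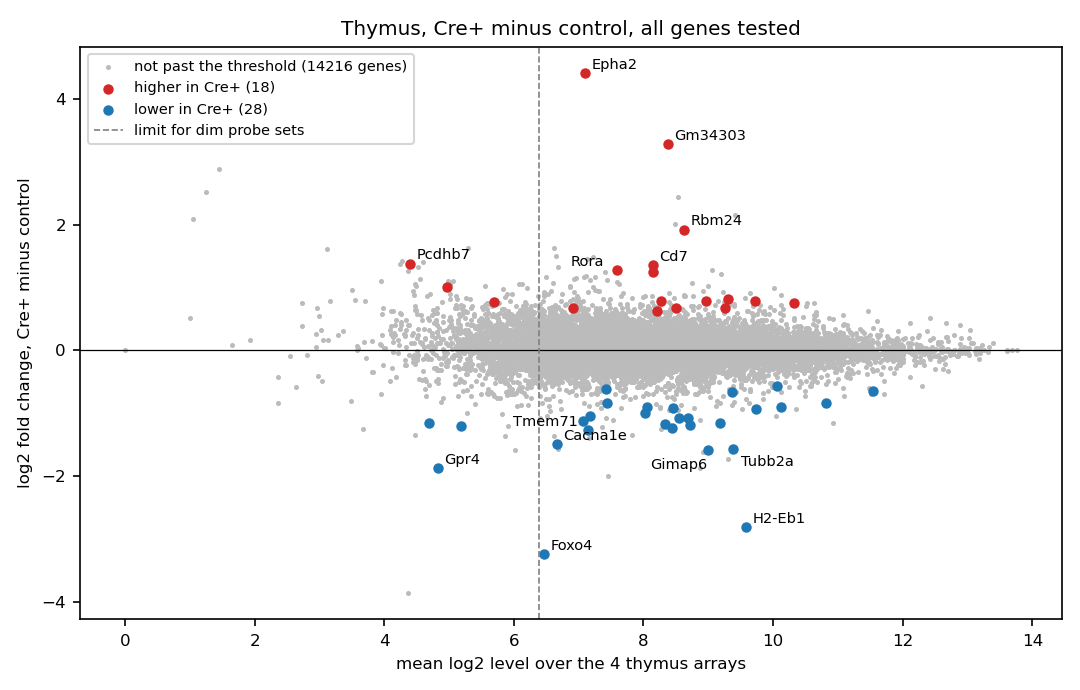
Mean log2 level over the 4 thymus arrays (horizontal axis) against the log2 fold change, Cre+ minus control (vertical axis), of the 14262 genes tested; red and blue points passed the threshold, grey points did not, and the dashed line is the limit of 6.38. Epha2 (4.41) and Gm34303 (3.28) lie above all other genes, and Foxo4 (-3.24) and H2-Eb1 (-2.81) are the lowest of the genes that passed.

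The largest rise was that of Epha2, an Eph receptor tyrosine kinase that binds ephrin-A ligands on neighbouring cells and is typical of epithelium. It read 5.09 and 4.71 in control thymus and 9.51 and 9.11 in Cre+ thymus. Both controls lay under the limit and both Cre+ arrays far above it, a 21.2-fold difference (log2 4.41, SE 0.22, limma adjusted p = 2.68e-06). The list of 20 tested thymic epithelium genes had mean levels of 9.19 and 9.16 in control and 9.31 and 9.38 in Cre+ thymus, and none of them passed the threshold; its part in the Epha2 result was not tested.

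Gm34303 rose by 9.72-fold. RefSeq (GRCm38.p6) lists it as a pseudogene and as the gene next to Foxo1 on the chromosome. It read 6.77 and 6.70 in control and 9.99 and 10.04 in Cre+ thymus, with arrays of a group closer than 0.1 to each other (log2 3.28, SE 0.10, limma adjusted p = 2.34e-08). This was the smallest adjusted p of the comparison. The direction was opposite to that of Foxo1 beside it.

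Rbm24, an RNA-binding protein that controls splicing in muscle, read 8.02 and 7.32 in control and 9.74 and 9.44 in Cre+ thymus (log2 1.92, limma adjusted p = 0.0112). A second Rbm24 probe set, 1456180_at, also passed in the probe-level fit (2.12, adjusted p = 0.0218). Rora encodes ROR alpha, a nuclear receptor of the circadian clock and of innate lymphoid and helper T cells. It read 7.16 and 6.74 against 8.11 and 8.35 (log2 1.28, adjusted p = 0.00756), and its probe sets 1436325_at and 1420583_a_at passed as well (0.89 and 0.97), while 1458129_at stood lower by 0.26 (probe-level adjusted p = 0.42). Pax8, a paired box factor, rose by 0.79, Klf5, a Krüppel-like zinc finger factor, by 0.68 and Nfix, of the nuclear factor I family, by 0.62. Another Pax8 probe set, 1446561_at, was not tested and differed by -0.27. The change of Klf5 turned to -0.20 when all of its probe sets were averaged. This average includes 1430255_at, which was dim and not tested and differed by -1.46. The other probe set at the limit, 1451739_at, differed by 0.20 (probe-level adjusted p = 0.729).

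Cd7, an immunoglobulin-like surface protein of T and natural killer cells, read 7.75 and 7.19 in control and 8.69 and 8.93 in Cre+ thymus (log2 1.35, limma adjusted p = 0.00773). The 13 tested genes of natural killer and innate-like T cells had mean levels of 7.60 and 7.54 in control against 7.68 and 7.88 in Cre+ thymus, and none passed; their part in the Cd7 and Rora results was not tested. Nkg7, a cytotoxic granule protein, differed by 0.54 (adjusted p = 0.0894), and Gzma, granzyme A, by -0.89 (adjusted p = 0.121). Tspan9, a tetraspanin, rose by 1.24, from 7.52 and 7.54 to 8.51 and 9.04. Naaa, a lysosomal amidase, rose by 0.79 and Fhit, a diadenosine hydrolase, by 0.68.

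Sparc, a matrix-binding protein secreted by fibroblasts, read 9.0 and 8.80 in control and 9.71 and 9.70 in Cre+ thymus (log2 0.81, limma adjusted p = 0.00934). Col3a1, the chain of type III collagen, read 9.96 and 9.92 against 10.62 and 10.77 (0.75, adjusted p = 0.0236). Igfbp7, a secreted binding protein of insulin-like growth factors, rose by 0.78. Another Igfbp7 probe set, 1437804_at, stood lower by 0.23 (probe-level adjusted p = 0.55). The 3 other genes that passed were dim in both groups: Pcdhb7, a protocadherin (1.38), Flt1, a receptor of vascular endothelial growth factor (1.00), and Cdc42bpb, a kinase (0.77). For Flt1 the probe set that is brightest in thymus, 1454037_a_at, gave -0.08, so its direction depended on the probe set.

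H2-Eb1 had the largest fall outside the FoxO genes. It encodes the beta chain of I-E, a class II molecule that can present peptides on dendritic cells, B cells, macrophages and thymic epithelium. Only RNA was measured, and whether these FVBn mice make I-E protein was not examined. Its probe set read 11.14 and 10.85 in control and 8.19 and 8.18 in Cre+ thymus, without overlap (7.01-fold lower, log2 -2.81, SE 0.24, limma adjusted p = 0.000416). No other class II probe set passed the threshold. At the probe level H2-Aa 1438858_x_at differed by 0.51 (12.31 and 12.03 against 12.56 and 12.80, adjusted p = 0.553), H2-Ab1 1450648_s_at by 0.44 (adjusted p = 0.487) and Cd74, the invariant chain, by 0.32 (adjusted p = 0.721). Larger rises were those of H2-Aa 1452431_s_at (0.86, adjusted p = 0.168) and H2-Ab1 1425477_x_at (1.12, adjusted p = 0.28) and 1451721_a_at (0.64, adjusted p = 0.392). H2-Aa 1443783_x_at went the other way (-0.73, adjusted p = 0.758). H2-Ea 1422892_s_at, of the I-E alpha chain, read 6.80 and 7.08 against 7.97 and 8.07 (1.08, adjusted p = 0.0949). RefSeq places H2-Eb1 between H2-Aa and H2-Eb2, and H2-Eb2 differed by -0.37 (adjusted p = 0.395). The array names H2-Eb1 with this probe set only, so no second probe set bears on it. The 13 tested dendritic cell genes, H2-Eb1 included, had mean levels of 9.18 and 9.11 in control and 9.14 and 9.15 in Cre+ thymus, with a median change of 0.22; their part in the H2-Eb1 result was not tested.

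Gimap6 belongs to the immunity-associated GTPases, a gene family active in mature lymphocytes. It read 9.81 and 9.76 in control and 8.44 and 7.96 in Cre+ thymus, both Cre+ arrays being lower (3.01-fold, log2 -1.59, SE 0.17, limma adjusted p = 0.00343). Its second probe set differed by -1.04 (probe-level adjusted p = 0.0584). Among its relatives, the Gimap4 probe set 1424374_at fell from 9.95 and 9.72 to 8.82 and 8.90 (log2 -0.97, adjusted p = 0.0147), and the brighter 1424375_s_at differed by -1.05 (adjusted p = 0.0733). Gimap8 differed by -0.56 (adjusted p = 0.165) and Gimap3 by -0.43 (adjusted p = 0.42). The other members ranged from -0.35 for Gimap1 to -0.03 for one Gimap7 probe set, and none of them passed.

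Tec, a kinase downstream of antigen and cytokine receptors, read 8.87 and 8.95 in control and 7.84 and 7.64 in Cre+ thymus (log2 -1.17, limma adjusted p = 0.00773). Id3, an inhibitor of E proteins that is induced by T cell receptor signals, read 10.22 and 10.18 against 9.38 and 9.16 (-0.93, adjusted p = 0.0186). Usp24 and Otud1, both deubiquitinases, fell by 1.24 and 1.07; Otud1 read 9.04 and 9.15 against 8.03 and 8.02. Cacna1e, a voltage-gated calcium channel, fell by 1.49 and Aqp11, an aquaporin, by 1.08.

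Tubb2a, a beta tubulin, read 10.26 and 10.06 in control and 8.72 and 8.46 in Cre+ thymus (log2 -1.57, limma adjusted p = 0.00621). The probe set of its near-identical relative Tubb2b read 10.26 and 10.08 against 8.47 and 8.42 (-1.72) without passing; signal of these paralogs may be shared, so which of them moved is uncertain. Spdl1, which brings dynein to kinetochores in mitosis, read 7.67 and 7.73 against 6.80 and 6.52 (-1.04, adjusted p = 0.00773). Tmem71 fell by 1.27, Pcmtd2 by 1.15 and the pseudogene Bambi-ps1 by 1.12.

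The remaining falls follow to complete the 46; apart from Mirt1 and Gpr4 they lie outside the naming rule, as do Pcdhb7 and Cdc42bpb, and were named after their values were seen. They were Mirt1, a long noncoding RNA (-0.99), Vars, a valyl-tRNA synthetase (-0.92), Emp1, a membrane protein (-0.90), Ctdsp2, a phosphatase (-0.90), Ctse, the protease cathepsin E (-0.84), Ccpg1, an endoplasmic reticulum protein (-0.83), Esyt2, a lipid transfer protein (-0.67), Smc4, a condensin subunit (-0.65), Olfml2b (-0.61) and S100a10, a partner of annexin A2 (-0.57). Smc4 read 11.94 and 11.80 in control and 11.34 and 11.10 in Cre+ thymus. Gpr4, a proton-sensing receptor (-1.87), Gm1673 (-1.21) and Cbwd1 (-1.15) were dim in both groups. Of the called genes outside the FoxO family, 20 had further tested probe sets at the limit in thymus, 39 in all. Of these 39, 34 had the direction of the brightest one, 25 with an unadjusted p under 0.05 and 9 past the threshold, and 5 had the opposite direction.

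**Figure D3:**
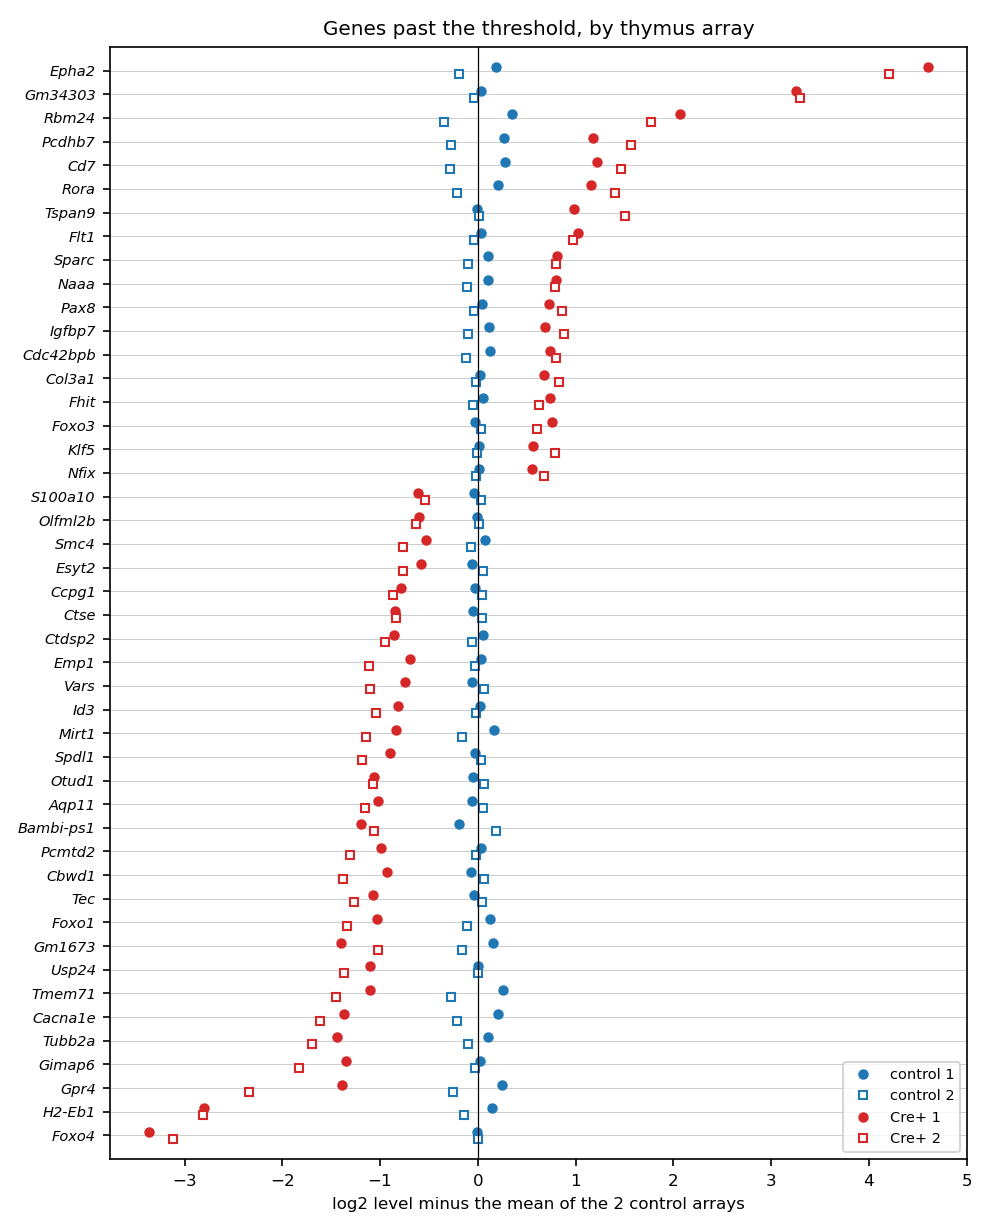
Log2 level of each of the 46 genes in the 4 thymus arrays, minus the mean of the 2 control arrays (horizontal axis); blue marks control and red Cre+, filled circles replicate 1 and open squares replicate 2. No gene has overlapping groups; the 18 genes that rose lie to the right of 0 and the 28 that fell to the left.

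The forkhead motif was looked for in the promoters of these genes, which are printed because the letters GTAAACA are the core that FoxO proteins bind. The 250 bases before each start site of the RefSeq promoter table (GRCm38.p6) were searched for GTAAACA or its reverse complement TGTTTAC. Of the genes that rose, 14 had an entry and 1 (7.14%) held the motif, and of those that fell, 19 had an entry and 2 (10.5%) did, against 3.54% of all genes in the table and 2.9% of the genes tested. The 3 promoters are given in the direction of transcription, 5′ to 3′, with the motif in capitals; Otud1 (chr2:19657481-19657730, + strand) has it starting 28 bases before the start site, Emp1 (chr6:135362681-135362930, + strand) 223 bases before and Fhit (chr14:10453459-10453708, - strand) 188 bases before.
Otud1: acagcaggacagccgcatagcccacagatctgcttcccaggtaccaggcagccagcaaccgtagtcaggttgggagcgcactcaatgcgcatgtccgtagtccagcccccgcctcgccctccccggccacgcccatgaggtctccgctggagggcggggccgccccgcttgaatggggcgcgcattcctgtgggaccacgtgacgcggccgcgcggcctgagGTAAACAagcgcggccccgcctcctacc
Emp1: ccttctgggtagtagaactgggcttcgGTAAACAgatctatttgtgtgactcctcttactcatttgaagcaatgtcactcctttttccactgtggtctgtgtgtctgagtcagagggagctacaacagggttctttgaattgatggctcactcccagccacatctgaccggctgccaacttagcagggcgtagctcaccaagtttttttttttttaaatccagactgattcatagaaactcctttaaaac
Fhit: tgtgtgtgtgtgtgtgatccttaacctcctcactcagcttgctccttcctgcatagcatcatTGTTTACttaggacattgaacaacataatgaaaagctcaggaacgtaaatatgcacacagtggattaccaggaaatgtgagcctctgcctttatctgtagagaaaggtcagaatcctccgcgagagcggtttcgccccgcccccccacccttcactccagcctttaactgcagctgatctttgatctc
Otud1 and Emp1 fell and Fhit rose, so the motif was found in promoters of both directions. The RefSeq promoters are those of a C57BL/6J genome and not of FVBn mice.

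Among genes that FoxO factors are known to control in lymphocytes, none passed the threshold. At an unadjusted p under 0.05, 6.3% of all genes tested stood higher and 5.41% lower. These shares apply to the unadjusted counts of this list and of those that follow. Of 14 such genes, 9 were tested; 1 stood higher and 1 lower at an unadjusted p under 0.05, and the median change was -0.13 against 0.02 for all genes (-0.31 without control replicate 2, -0.08 without Cre+ replicate 1, and 0.04 with the probe sets brightest in thymus, so that its sign turned). Il7r, the interleukin 7 receptor chain needed for survival, read 9.17 and 9.0 in control and 9.06 and 9.26 in Cre+ thymus (log2 0.08, limma adjusted p = 0.907). Klf2, the factor of thymic exit, read 9.30 and 8.65 against 8.47 and 8.79 (-0.34, adjusted p = 0.642), and Ccr7, a homing receptor, 8.75 and 7.94 against 8.26 and 8.52 (0.04, adjusted p = 0.976). The groups overlapped for all of these.

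S1pr1, the receptor that draws mature cells out of the thymus, read 7.43 and 7.03 in control and 6.78 and 6.92 in Cre+ thymus (log2 -0.38, limma adjusted p = 0.361). Rag1 and Rag2, the recombinase genes of double positive cells, differed by -0.33 (adjusted p = 0.932) and -0.49 (adjusted p = 0.655). Rag1 read 12.85 and 12.88 in control and 12.60 and 12.47 in Cre+ thymus. Its SD was 0.02 in control and 0.09 in Cre+ thymus, whereas its SE of 0.89 used the spread of LSEC and lung arrays as well. Blnk, an adaptor of antigen receptor signalling, differed by 0.55 (adjusted p = 0.378), Bach2 by -0.13 and Eomes by 0.11. Foxp3 and Ctla4 had probe sets under the limit in every tissue and were not tested, and Tcf7 was not analysed here.

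The list of general FoxO targets had 36 members, 34 of them tested and none past the threshold. Its median was -0.05, which turned to 0.05 without Cre+ replicate 1. With all arrays, 7 members were lower and 2 higher at an unadjusted p under 0.05, against 5.41% and 6.3% of all genes. Sesn1, a stress-induced inhibitor of mTORC1, read 9.91 and 10.00 in control and 9.14 and 9.23 in Cre+ thymus (log2 -0.77, limma adjusted p = 0.0804). Cited2, a transcriptional coregulator, read 8.68 and 8.72 against 8.14 and 8.09 (-0.58, adjusted p = 0.0953). Both were lower in both Cre+ arrays without passing. Insr, the insulin receptor, differed by -0.37 (adjusted p = 0.227). Of the 26 tested genes of insulin, PI3K and mTOR signalling none passed either (median -0.07, or 0.03 without Cre+ replicate 1; 1 higher and 3 lower at an unadjusted p under 0.05).

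Genes of thymocyte stages were next compared. In bulk tissue, fewer cells of a type and less RNA per cell cannot be told apart. The p-values of thymocyte genes also rest on their spread between LSEC and between lung arrays, so a missed threshold does not show that thymus was unchanged. The list of mature thymocytes and egress had 15 tested members with a median of -0.34, and Gimap6 fell. At an unadjusted p under 0.05, 6 members were lower and 1 higher, against 5.41% and 6.3% of all genes. The mean level of the list in Cre+ thymus was 9.22 and 9.25, below the 9.70 and 9.45 of control. Its median was -0.18 without control replicate 1 and -0.19 without Cre+ replicate 1. The list includes Gimap3, Gimap4, Gimap6, Gimap7, Gimap8 and Gimap9, so 1 gene family weighs heavily in it. Of its other members, Il7r, Ccr7, Klf2 and S1pr1 changed by 0.08, 0.04, -0.34 and -0.38. None of the 15 double positive genes passed (median -0.04; 1 higher and 3 lower at an unadjusted p under 0.05). Satb1, a chromatin organizer of thymocytes, read 9.67 and 9.86 against 9.10 and 9.11 (log2 -0.66, limma adjusted p = 0.053), and Dntt, which adds bases to receptor gene joints, 12.62 and 12.54 against 12.10 and 11.95 (-0.56, adjusted p = 0.0804). Both were lower in both Cre+ arrays and missed the threshold.

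Early double negative genes had a median of 0.22 over 18 tested, and none passed. At an unadjusted p under 0.05, 6 of them were higher and 1 lower, against 6.3% and 5.41% of all genes. Dtx1, a Notch regulator, differed by 0.51 (limma adjusted p = 0.169), Notch3 by 0.53 (adjusted p = 0.174) and the progenitor factor Lmo2 by 0.48 (adjusted p = 0.144). Over the 21 tested genes of the Notch pathway the median was 0.10 and none passed. Unadjusted, 5 were higher and 2 lower at p under 0.05, against the same 6.3% and 5.41%. For Notch3 the direction depended on the probe set (-0.01 with the one brightest in thymus). The 18 tested genes of the T cell receptor complex had a median of 0.00 and a range from -0.67 to 0.20. None of them reached even an unadjusted p of 0.05, with the spread taken from LSEC and lung arrays as well. Trat1 and Cd6 had the smallest p (-0.17, adjusted p = 0.695, and 0.11, adjusted p = 0.711), so larger changes of this list met a wider spread.

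Of 17 genes of positive selection and receptor stimulation, Id3 passed (median of the list -0.07). Of 22 T lineage transcription factors, Rora rose and Id3 fell (median -0.09), and of 15 circadian genes Rora rose (median 0.12). Among 21 cytokine receptors and SOCS genes none passed (median 0.13; 4 higher and 1 lower at an unadjusted p under 0.05). Socs3, a feedback inhibitor of cytokine signals, differed by 0.50 (limma adjusted p = 0.098) and Il4ra by 0.25 (adjusted p = 0.261). Among 18 chemokine receptors, integrins and S1P genes none passed (median 0.03; 3 higher and 2 lower unadjusted). Itgae, the CD103 integrin, read 8.41 and 7.95 in control and 8.90 and 9.24 in Cre+ thymus (0.88, adjusted p = 0.0804), and S1pr4 8.91 and 8.57 against 8.0 and 8.01 (-0.74, adjusted p = 0.0869).

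The lists of mitosis and of replication had the lowest medians outside the FoxO genes, and none of their members passed the threshold. All 22 tested mitosis genes were lower in both Cre+ arrays than in both controls, against 18.4% of all genes, and 17 had an unadjusted p under 0.05, against 5.41%. Their median was -0.52, with a range from -0.78 to -0.25. The mean level of the list was 9.74 in both controls and 9.32 and 9.13 in Cre+ thymus. Foxm1, the forkhead factor of the G2 to M transition, read 8.83 and 8.82 against 8.43 and 8.36 (log2 -0.43, limma adjusted p = 0.0661), and the spindle motor Kif11 9.09 and 9.24 against 8.64 and 8.53 (-0.59, adjusted p = 0.0976). Spdl1 and Smc4, which passed above, are outside this list.

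Of 25 tested genes of replication and G1/S, 23 had a negative change and 2 a positive one. The groups did not overlap for 22, all lower, against 18.4% of all genes, and 15 were lower at an unadjusted p under 0.05, against 5.41%. The median was -0.37, and the mean level 10.00 and 9.97 in control against 9.67 and 9.56 in Cre+ thymus. Mcm3, of the replicative helicase, read 10.21 and 10.28 against 9.76 and 9.70 (log2 -0.52, limma adjusted p = 0.0834), and Gins1, of the same helicase complex, differed by -0.59 (adjusted p = 0.0808). Neither passed. Of 20 genes of Myc and nucleolar ribosome biogenesis, 18 were lower in sign (median -0.29), and none passed at the gene level. At an unadjusted p under 0.05, 7 were lower, against 5.41% of all genes. Wdr12, a ribosome assembly factor, read 8.89 in both controls and 7.74 and 7.55 in Cre+ thymus (-1.25, adjusted p = 0.0614), and Nolc1 differed by -0.47 (adjusted p = 0.102). The genes of each of these lists are expressed by the same dividing cells and are not independent of each other. The median of the Myc and nucleolar list was -0.16 without Cre+ replicate 2; no other omission moved a median of these 3 lists by over 1.5 times.

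Metabolic lists lay near the median of all genes, and none of their members passed. Cytosolic ribosomal proteins had a median of -0.03 over 17 genes, with Rps6 at -0.42 (limma adjusted p = 0.158) and Rplp0 at -0.14. Glycolysis had a median of 0.00 over 17 genes (Aldoa 0.25, Slc16a1 -0.41), and the respiratory chain 0.00 over 21 (Ndufs5 -0.62, Ndufa9 -0.15). For sterol and fatty acid synthesis it was -0.06 over 19 genes, with Cyp51 at -0.87 (adjusted p = 0.21) and Insig1 at -0.54. Antioxidant genes had -0.02 over 20 (Txnrd1 -0.39), autophagy genes 0.09 over 20 (Gabarap 0.31, Map1lc3b -0.26) and apoptosis genes 0.00 over 18. Bmf, a BH3-only killer protein, read 8.33 and 8.65 in control and 9.40 and 9.62 in Cre+ thymus (1.02, adjusted p = 0.167), and the inhibitor Xiap differed by -0.26. At an unadjusted p under 0.05 these lists had few members: none higher and 1 lower among ribosomal proteins, 1 and 0 in glycolysis, 0 and 1 in the respiratory chain, 1 and 3 in sterol synthesis, 1 and 2 among antioxidant genes, 3 and 1 in autophagy and 1 and 2 in apoptosis.

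Interferon response genes were looked at because the Mx promoter is itself interferon-inducible. Of 22 tested, 20 were higher in sign and none passed (median 0.27; 2 higher at an unadjusted p under 0.05). The mean level was 8.18 and 8.07 in control, 8.07 in Cre+ replicate 1 and 8.63 in Cre+ replicate 2, so a single Cre+ array was high; without it the median was -0.10. Oasl2 and Ifih1 had the smallest p, at 0.49 (limma adjusted p = 0.233) and 0.38 (adjusted p = 0.406). The 11 tested genes of MHC class I and peptide loading had a median of 0.19 and none passed (3 higher unadjusted), with H2-D1 at 0.41 (adjusted p = 0.213) and Nlrc5 at 0.49 (adjusted p = 0.227). Immediate early and heat shock genes had a median of -0.03 (Hspb1 0.67, Junb -0.24), and none passed, also without adjustment.

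Markers of the other cells of a thymus preparation were compared to show which of them moved. All 16 mesenchyme and fibroblast genes were higher in sign in Cre+ thymus, 13 without overlap against 22.7% of all genes, and 5 had an unadjusted p under 0.05, against 6.3%. Sparc and Col3a1 rose. The list averaged 8.50 and 8.42 in the controls against 8.94 and 9.01 in the Cre+ arrays, and its median change was 0.47. The part of this shift in the rises of Sparc, Col3a1 and Igfbp7 was not tested. Thy1 stands in this list and among the pan T cell genes.

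Adipocyte genes had a median of 0.52 over 8 tested, and none passed. At an unadjusted p under 0.05, 5 of these genes were higher, against 6.3% of all genes. Their mean level was 7.90 and 7.55 in control, 8.53 in Cre+ replicate 1 and 7.79 in Cre+ replicate 2, so that replicate 2 lay within the controls. Without Cre+ replicate 1 the median was 0.27. Retn read 8.06 and 7.99 against 8.50 and 8.36 (log2 0.40, limma adjusted p = 0.141), and Cidec, a lipid droplet protein, 6.04 and 6.17 against 7.08 and 7.03 (0.95, adjusted p = 0.189).

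Thymic epithelium had a median of 0.15 over 20 tested genes, with Krt5, the keratin of the medulla and outer cortex, at 0.72 (limma adjusted p = 0.241) and Epcam at 0.29. Of 14 endothelial genes, 6 reached the limit in thymus; Flt1 rose at its dim probe set (median 0.11). Macrophage and monocyte genes had a median of 0.24 over 15 (Mertk 0.40, Csf1r 0.49), erythroid genes 0.21 over 7 (Alas2 0.90, Slc4a1 0.34) and neutrophil genes 0.18 over 5 (Ltf 0.18, S100a8 0.92). B and plasma cell genes had -0.20 over 11, with Igll1 at -0.54 and Ebf1 at -0.35. Apart from the genes said to have risen or fallen, no member of these lists passed. At an unadjusted p under 0.05, 2 epithelial, 2 endothelial (Flt1 included), 1 macrophage and 2 erythroid genes stood higher and 1 B cell gene lower.

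The remaining lists held no gene past the threshold. The pan T cell median was 0.05 over 7 genes (Cd5 -0.31, Thy1 0.24), and that of regulatory T cells 0.03 over 7 (Il2ra -0.52, Gpr83 -0.62). Natural killer and innate-like T genes had a median of 0.18, and 2 of them stood higher and 1 lower at an unadjusted p under 0.05, as did 2 regulatory T cell genes on the lower side; the lists that follow, and pan T cells, had none. Mast cell genes had 0.02 over 6 tested, of which 2 reached the limit in thymus (Hdc -0.53, Cpa3 0.20), and platelet genes 0.11 over 5 (Pf4 0.53, Gp1bb -0.11). For tissue that can be taken along with a thymus, skeletal muscle had a median of 0.02 over 6 (Mb -0.35, Mylpf -0.31) and parathyroid -0.08 over 2 (Chga -0.33, Casr 0.16). The 4 tested sex-linked genes had a median of -0.07, with Kdm5d at -0.12 and Xist at -0.11.

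**Figure D4:**
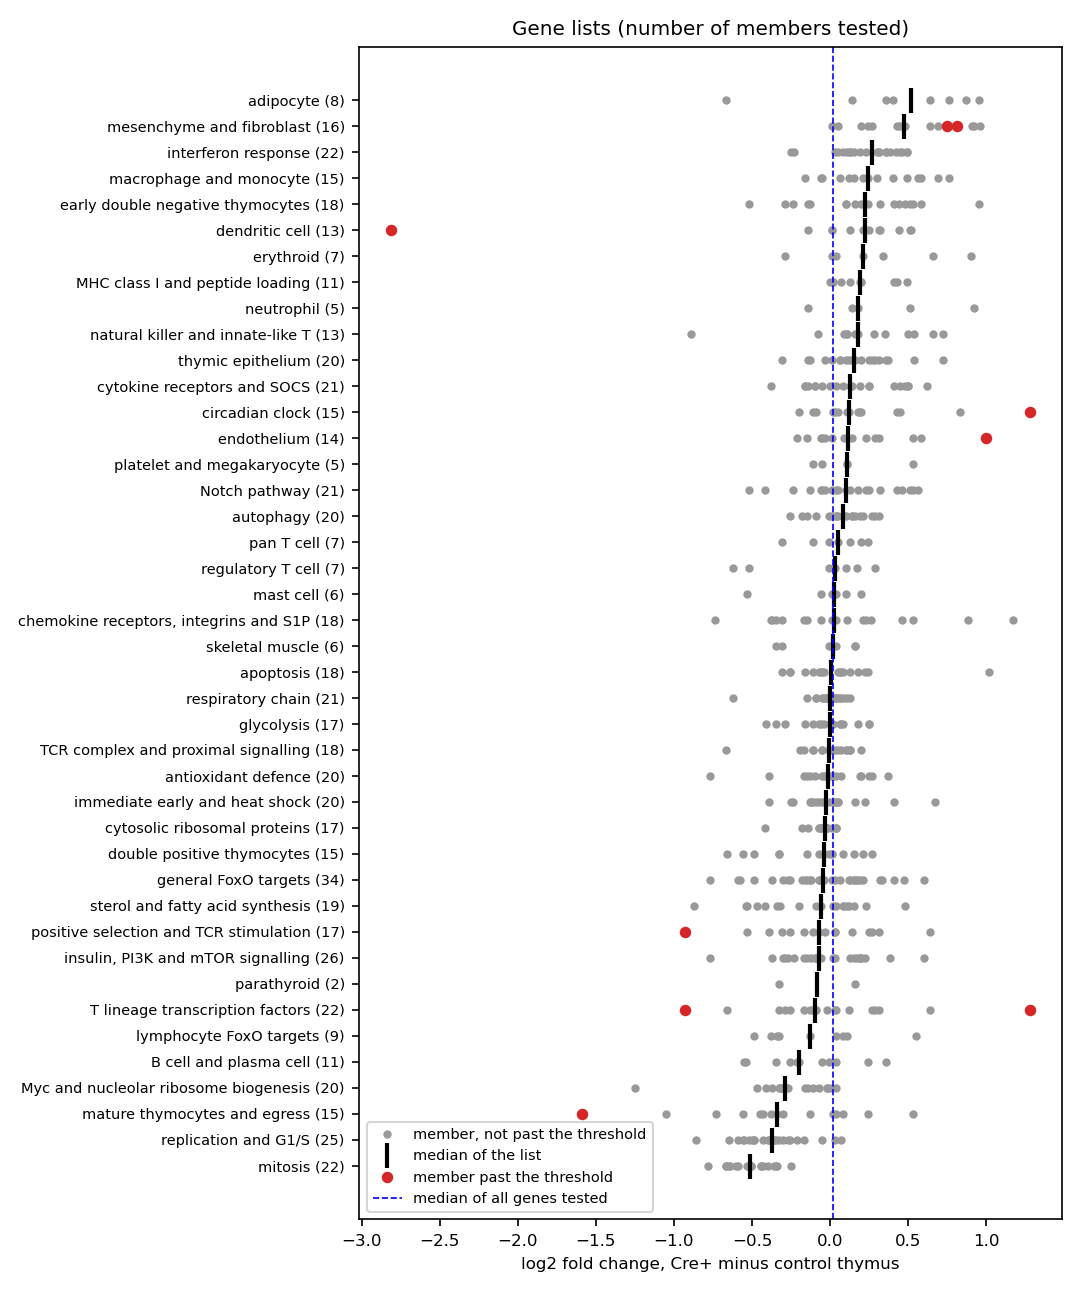
Log2 fold change, Cre+ minus control thymus, of every tested member (points) of each gene list other than the FoxO and sex-linked genes, with the number of members tested in brackets; black bars are list medians, red points passed the threshold and the dashed line is the median of all genes tested (0.02). Of the medians drawn, mitosis (-0.52) and replication (-0.37) lie lowest, mesenchyme (0.47) and adipocyte (0.52) highest.

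The response was then set against that of the endothelial cells, to see which changes were shared between tissues. In LSEC 764 genes passed the threshold (5.36%) and in lung endothelium 12 (0.0841%). Of the 46 thymus genes 10 also passed in LSEC, which is 21.7% of the thymus genes and 1.31% of the LSEC genes, 9 in the same direction. These 9 were Gm34303, Nfix, Foxo4, Foxo1, Gimap6, Gpr4, Tmem71, Usp24 and Otud1. Gimap6 fell by 1.59 in thymus and by 1.48 in LSEC, Gpr4 by 1.87 and 1.30, Tmem71 by 1.27 and 1.01, Usp24 by 1.24 and 0.75, and Otud1 by 1.07 and 0.70. For Gimap6 this rests on the brightest probe set. The other one, 1456762_at, differed by -1.04 in thymus and by -0.10 in LSEC (probe-level limma adjusted p = 0.0584 and 0.79). Gm34303 passed in lung as well and was the only one of the 46 to do so (thymus 3.28, LSEC 1.85, lung 1.08).

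The difference between the thymus effect and the LSEC effect was tested directly with limma, and 269 genes passed (1.89%), 27 of them among the 46. Foxo3 was the gene that passed in opposite directions, 0.68 in thymus and -0.53 in LSEC (difference 1.21, adjusted p = 0.00184). At the probe level the Foxo1 probe set 1416982_at had fallen by less in thymus than in LSEC (-1.02 and -2.10, adjusted p of the difference 0.0483). The same held in sign for 1416983_s_at (-1.80 and -3.56) without passing (adjusted p = 0.0586), while 1416981_at differed by -0.26 between tissues (adjusted p = 0.56). Epha2 changed by -0.03 in LSEC and Rora by -0.20, and both differed from thymus (4.44 and 1.48). Of the 25 replication genes 9 differed between the tissues, Mcm3 being -0.52 in thymus and 0.53 in LSEC (adjusted p = 0.00699), whereas none of the 22 mitosis genes passed this test.

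Against lung, 4 genes differed (0.028%), 3 of them among the 46: Epha2 (4.21, limma adjusted p = 0.000176), Gm34303 (2.20, adjusted p = 7.75e-05) and H2-Eb1 (-2.99, adjusted p = 0.00964). The counts of these tests also rested on single thymus arrays. Leaving out control replicate 1, control replicate 2, Cre+ replicate 1 or Cre+ replicate 2 gave 101, 52, 575 and 69 genes against LSEC, and 9, 3, 15 and 8 against lung.

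Some of the largest differences from LSEC were changes of the endothelial cells that thymus did not show past the threshold. Lyve1, which binds hyaluronan on lymphatic vessels, changed by -3.45 in LSEC and read 4.46 and 4.53 in control and 5.31 and 5.79 in Cre+ thymus (log2 1.06, limma adjusted p = 0.112). Fmo1, Angpt2 and Abcc9 changed by 0.28, -0.12 and 0.31 in thymus and by -3.47, -3.84 and -3.06 in LSEC. In the other direction Il6, Hdc, Vwf, Magea4 and Spin4 changed by 0.26, -0.53, 0.53, -0.38 and -0.35 in thymus and by 3.92, 2.59, 3.27, 2.09 and 2.09 in LSEC. Lyve1, Il6, Vwf, Hdc and Spin4 were dim in all 4 thymus arrays, and Abcc9 had both thymus group means under the limit (5.97 and 6.28).

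**Figure D5:**
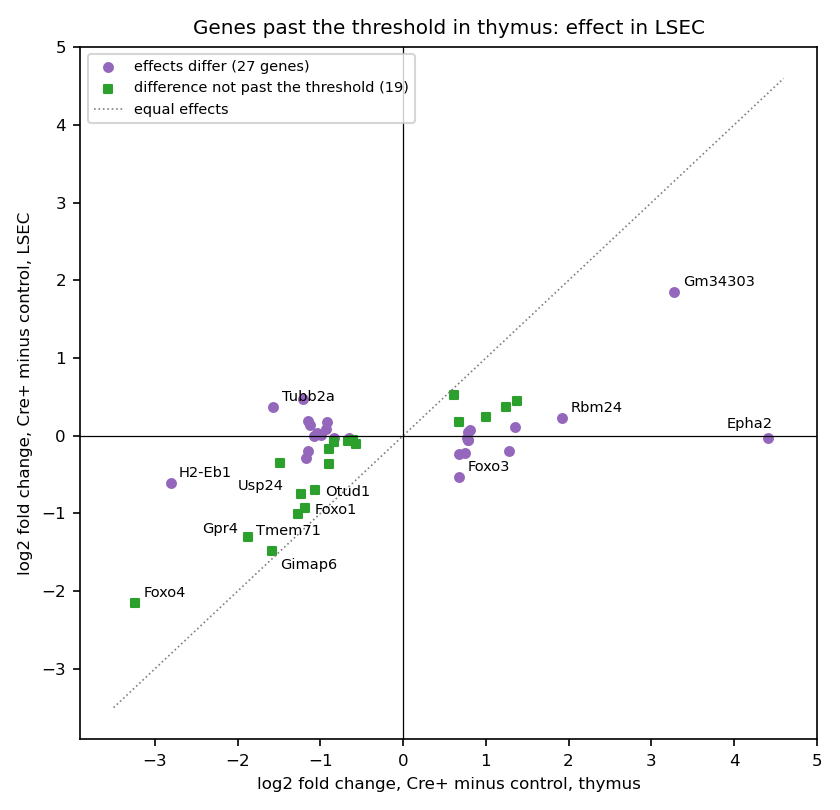
Log2 fold change, Cre+ minus control, in thymus (horizontal axis) and LSEC (vertical axis) of the 46 genes past the threshold in thymus; purple circles mark the 27 genes whose effects differ between the tissues, green squares the others, and the dotted line equal effects. Foxo4, Gpr4, Gimap6 and Tmem71 fell in both tissues, Epha2 (4.41 and -0.03) and H2-Eb1 (-2.81 and -0.61) lie far off the line of equal effects, and Foxo3 has opposite signs.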

How the data were processed

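RNA was hybridized to Affymetrix Mouse Genome 430 2.0 arrays. The authors' deposited values were read as log2 values from their range; the log base, the summarization and the normalization done by the authors were not stated in any label or header. Array medians of the deposited values spanned 6.75 to 7.04, and the 14 arrays were quantile normalized. Of 45101 probe sets, 34945 name 1 gene through the platform annotation, 932 several and 9160 none, and 64 are array controls; those naming 1 gene were used. Models with 6 group means were fitted in limma 3.58.1 (R 4.3.3; lmFit and eBayes, 8 residual and 3.06 prior degrees of freedom) over 14262 genes, and over 25446 probe sets for probe-level values. The arrays' number limits the precision. The code was tested on simulated data.

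Genes named were the FoxO genes, all lymphocyte FoxO targets, the 15 largest rises and 15 largest falls at the limit, up to 4 passing members of each of the 44 lists (2 of smallest p where none passed), the 5 largest differences from LSEC each way and 8 shared calls; class II, Gimap and Tubb2b probe sets were looked up after the results were seen. The comparison, its members and lists were chosen with earlier results of these data known. Alternatives were scaling, filter, probe set rule, limma options, a replicate block, thymus arrays alone and omission of each array. No label says whether the replicate numbers pair the samples. Deviations of same-numbered thymus arrays correlated at 0.037 over genes, which with 2 arrays in each group cannot decide it. Xist followed the replicate number in both groups.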

Additional observations from a re-analysis of the deposited data

Results flagged for a closer look

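The results below stand out because a test of the difference between tissues passed its threshold. Each value is the thymus effect minus the effect in the other tissue (log2, limma adjusted p under 0.05). Of the genes that passed, those given here had also passed in thymus or fall under the naming rule; the others are not listed.

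Among the genes that rose in thymus, the difference from LSEC was 4.44 for Epha2, 1.70 for Rbm24, 1.48 for Rora, 1.43 for Gm34303, 1.24 for Cd7, 1.21 for Foxo3, 0.97 for Col3a1, 0.92 for Klf5, 0.85 for Igfbp7, 0.84 for Naaa, 0.80 for Cdc42bpb, 0.74 for Pax8 and 0.73 for Sparc. Of these, Gm34303 also rose in LSEC, by less than in thymus, and Foxo3 fell there.

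Among the genes that fell in thymus, the difference was -2.20 for H2-Eb1, -1.94 for Tubb2a, -1.68 for Gm1673, -1.34 for Cbwd1, -1.26 for Bambi-ps1, -1.10 for Vars, -1.08 for Spdl1, -1.08 for Aqp11, -1.03 for Id3, -1.0 for Mirt1, -0.95 for Pcmtd2, -0.89 for Tec, -0.80 for Ccpg1 and -0.63 for Smc4. None of these 14 genes passed in LSEC.

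Other named genes had not passed in thymus itself. Those with a thymus effect above that in LSEC were Lyve1 (4.51), Fmo1 (3.75), Angpt2 (3.72), Abcc9 (3.36), Hspb1 (2.43), Oasl2 (0.93), Nlrc5 (0.91), H2-D1 (0.78), Socs3 (0.77), Nkg7 (0.74) and Mertk (0.68). Those with one below it were Il6 (-3.67), Hdc (-3.12), Magea4 (-2.47), Vwf (-2.74), Spin4 (-2.44), Mcm3 (-1.05) and Nolc1 (-0.66). Lyve1, Abcc9, Il6, Hdc, Vwf and Spin4 had both thymus group means under the limit for dim probe sets.

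Against lung endothelium the difference was 4.21 for Epha2, 2.20 for Gm34303 and -2.99 for H2-Eb1.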

How the results depend on the processing

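Of 14 alternatives fitted to the thymus comparison, 3 genes passed in each (Epha2, Gm34303 and H2-Eb1), and 44 of the 46 kept their direction wherever they were tested; Flt1 and Klf5 did not. The count of 46 was 35 with median centring, 32 on the values as deposited (an alternative added after seeing the data), 24 without a filter, 31 with all probe sets of a gene averaged, 119 with limma's trend and robust options, 4 with the thymus arrays alone, 25 at a fold of 2 or more and 11 to 199 when 1 thymus array was left out. With the replicate number as a block the count was 10; the numbers do not pair the samples by any label, and since Xist follows the number this block also follows the Xist pattern. For the difference from LSEC (269 genes) it was 122 without a filter, 14 with the replicate block and 52 to 575 with 1 array left out. For the difference from lung (4 genes) it was 11 with averaged probe sets, 22 with trend and robust, 2 with the replicate block and 3 to 15 with 1 array left out. The cause of these shifts was not tested, except that fewer arrays or added terms leave fewer degrees of freedom.

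Calls of FoxO probe sets were lost, with the direction kept, under several settings. Foxo1 1416981_at lost its call with the replicate block and with thymus alone (-1.19 in both), and ranged from -1.35 to -1.03 with 1 array left out. Foxo1 1416982_at lost it with median centring (-0.97), on the values as deposited (-0.95), with the replicate block and with thymus alone (-1.02 in both), and ranged from -1.10 to -0.94. Foxo1 1416983_s_at lost it in the same settings (-1.75, -1.73, -1.80 and -1.80), and ranged from -1.99 to -1.61. Foxo3 1434832_at did so too (0.66, 0.67, 0.68 and 0.68), and ranged from 0.61 to 0.76. With 1 array left out, Foxo3 1450236_at ranged from -0.05 to 0.10 and Foxo4 1422149_at from -0.17 to 0.03, both changing sign without a call.

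List medians that moved by more than the spread between arrays of a group were mitosis with averaged probe sets (-0.45) and with 1 array left out (-0.63 to -0.42), replication with 1 left out (-0.46 to -0.30), Myc and nucleolar genes on the values as deposited (-0.25), with averaged probe sets (-0.21) and with 1 left out (-0.33 to -0.16), and mesenchyme with 1 left out (0.47 to 0.63). Within that spread, medians ranged as follows with 1 array left out: mature thymocytes from -0.49 to -0.18, adipocyte from 0.27 to 0.78, lymphocyte FoxO targets from -0.31 to -0.08 (0.04 with the probe sets brightest in thymus) and general FoxO targets from -0.09 to 0.05. Of the 42 lists other than FoxO and sex-linked genes, 15 had a median that turned sign under such an omission, lists at 0.00 not counted; the largest of these was the interferon response (0.27, with a range from -0.10 to 0.54).

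Single genes changed sign as follows. With the probe set brightest in thymus, Angpt2 gave 0.02, Bach2 0.22, Flt1 -0.08 and Notch3 -0.01, and the difference from LSEC of Flt1 was -0.19. With averaged probe sets Bach2 gave 0.09, Hdc 0.29, Il7r -0.09 and Klf5 -0.20, and the differences from LSEC of Flt1, Foxo1 and Klf5 were -0.01, 0.05 and -0.05. Both with deposited values and after median centring, the difference from LSEC was 0.04 for Foxo4 and 0.00 for Gimap6. With 1 thymus array left out, changes in thymus that turned sign ranged as follows: Casr -0.25 to 0.57, Ccr7 -0.36 to 0.45, Eomes -0.10 to 0.31, Gp1bb -0.29 to 0.07, Il6 -0.63 to 1.15, Il7r -0.02 to 0.17, Kdm5d -1.74 to 1.5, S100a8 -0.49 to 2.34, Spin4 -0.84 to 0.14, Vwf -0.03 to 1.10, Xist -3.33 to 3.11. The differences from LSEC that did so ranged from Gimap6 -0.35 to 0.13 and Tmem71 -0.53 to 0.01. None of these had passed in thymus except Gimap6 and Tmem71, whose own thymus change kept its sign.

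The arrays carry no detection calls here, so genes under the limit of 6.38 have no stated background, and their folds are differences of dim values. Normalization moved the median change of all genes only between 0.021 and 0.033. The labels do not give sex, age or collection day.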

Other observations

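The probe-level fit, in which each probe set stands for itself, found 83 probe sets past the threshold of 25446 tested (0.326%), 44 higher and 39 lower in Cre+ thymus. Of these, 55 belong to the 46 genes that passed in the gene-level fit and 28 to other genes, which did not pass there. Gimap4 and Wdr12, described above, are among the latter. Of the 28, 18 reached the limit in thymus, 14 higher and 4 lower. Igfbp5, a binding protein of insulin-like growth factors, read 8.53 and 8.33 in control and 9.75 and 10.00 in Cre+ thymus (log2 1.45, probe-level limma adjusted p = 0.0376), and Mmp14, a membrane-bound matrix metalloproteinase, 6.40 and 6.28 against 7.19 and 7.07 (0.79, adjusted p = 0.0466). Efnb1, a ligand of Eph receptors, read 5.59 and 5.80 against 6.55 and 6.70 (0.93, adjusted p = 0.0296). The lower ones were Wdr12 (-1.53), Il16, a cytokine of T cells (-1.21), Aff3 (-1.14) and Gimap4 (-0.97). In LSEC the same probe sets of Il16, Gimap4 and Efnb1 passed in the same direction. They changed there by -1.74, -0.63 and 1.54 (probe-level limma adjusted p = 2.09e-05, 0.00728 and 5.92e-05). Those of Igfbp5, Mmp14, Wdr12 and Aff3 did not pass in LSEC. These genes were named after their values were seen.

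Large changes that missed the threshold in the gene-level fit were also noted, again after their values were seen. Cap1, a cyclase-associated actin regulator, read 8.19 and 8.50 in control and 10.54 and 10.45 in Cre+ thymus (log2 2.15). Cd207, the langerin of some dendritic cells, read 7.94 and 7.01 against 8.97 and 10.01 (2.01). Sorl1, a sorting receptor, read 8.53 and 8.32 against 9.80 and 9.59 (1.27). D17H6S56E-5, which RefSeq lists next to the called gene Vars (-0.92), read 9.86 and 9.76 against 8.11 and 7.76 (-1.87). The arrays of the groups did not overlap for any of these 4 genes, a state that 41.1% of all genes tested shared. These 4 were picked for large changes, so the lack of overlap adds no support. Adamts15 was lower by 2.00 through Cre+ replicate 1 alone, which read 4.69 against 8.22 in Cre+ replicate 2 and 8.52 and 8.39 in control.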
